A study of Mus musculus with 26 samples.

Results

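Notch receptors are cell-surface proteins that are cut when a Delta or Jagged ligand on a neighbouring cell binds them, and the freed intracellular part joins RBPJ and Mastermind proteins on DNA to switch on target genes. In the thymus this pathway is known for committing progenitors to the T lineage, with Notch1 as the receptor that does most of that work. The OP9/Dll-1 culture system supplies the ligand artificially: OP9 is a mouse bone marrow stromal line, here carrying the Notch ligand Delta-like 1, and it is widely used to grow T cells from precursors. A group of 7 genes of the pathway were followed in invariant natural killer T (NKT) cells and their candidate precursors. They are the receptors Notch1, Notch2 and Notch3 and the target genes Dtx1, Nrarp, Hes1 and Ptcra. Members were taken by gene symbol, which gave 7 genes of 23168 symbols with a usable value in all 26 libraries.

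The libraries were made from thymocytes of C57BL/6 mice of 6 to 8 weeks and fall into 5 groups. DN1eP-NKT cells (4 libraries) carried the Vα14Jα18 receptor on the surface and had been grown from DN1eP for 10 days over OP9/Dll-1 cells, with IL-2 and IL-7 at 5 ng/ml each. DN1eP precursors (4) lacked that receptor and were sorted straight from the thymus as lineage-negative cells carrying CD44, CD5, CD27 and CXCR3, low in CD24 and without CD25 or Ly108. Thymic NKT cells were sorted by TCRβ and a CD1d dimer loaded with αGalCer, and were split into NKT-1 (5, CD44-/NK1.1-), NKT-2 (7, CD44+/NK1.1-) and NKT-3 (6, CD44+/NK1.1+). The labels do not say whether replicates came from separate animals, so p-values measure only the spread between these libraries. Values are FPKM, read fragments scaled by transcript length and library total, as deposited.

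The 26 libraries lie in 2 sets of 13, told apart by a library's median over its expressed genes (those at or above 1 FPKM), which was 12.97 to 13.85 FPKM in the higher set and 7.58 to 9.81 FPKM in the lower set. All DN1eP-NKT libraries and 9 thymic libraries (NKT-1 libraries 1 and 2, NKT-2 libraries 1 to 4, NKT-3 libraries 1 to 3) are in the higher set. All DN1eP libraries and the other 9 thymic libraries are in the lower set. Per the labels 2 library kits were used, but the labels do not say which library had which. Depth is unknown, and the deposited interval of a gene at 20 to 100 FPKM had a half-width of 5.53% to 23.8% of its value. The half-width was 5.53% to 6.29% in the 9 thymic libraries of the lower set. It was 6.23% to 7.6% in library 1 of DN1eP, DN1eP-NKT, NKT-1 and NKT-2, and 15.3% to 23.8% in all other libraries. The markers of T and NKT cells were present in every library (5 genes summing to 1074 to 6015 FPKM). Within the higher set their sum was lower in DN1eP-NKT, at 1074 to 1550 FPKM (median 1409), than in thymic libraries, at 1531 to 2840 FPKM (median 2249). The part of this difference in the values of the members was not tested. NKT-2 library 6 and NKT-3 library 5 held B cell or erythroid transcripts (143 FPKM summed over 8 B cell genes and 476 FPKM over 5 erythroid genes), and each member called in the comparisons of DN1eP-NKT with thymic NKT cells, of DN1eP with the thymic mean and of NKT-3 with NKT-1 was also called without these 2 libraries.

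In the mm9 intervals deposited with the values, Notch1 lies at chr2:26313422-26359342, Notch2 at chr3:97817461-97954290 and Notch3 at chr17:32257838-32303797. Dtx1 lies at chr5:121130273-121161678, Nrarp at chr2:25036278-25038852, Hes1 at chr16:30065443-30067882 and Ptcra at chr17:46892612-46900661. The 250 bases before the annotated start of Dtx1, Nrarp and Ptcra are printed because Dtx1 and Nrarp are the members that were higher in DN1eP-NKT, and Ptcra is the member, of the 6 with a window searched, that holds the letters of an RBPJ core. No window of Hes1 was searched. The sequences are RefSeq promoter windows on GRCm38.p6, a later build than that of the intervals above, and read 5′ to 3′ on the gene's strand. They span chr5:120711670-120711919 on the minus strand, chr2:25180508-25180757 on the plus strand and chr17:46763713-46763962 on the minus strand, in the order printed. Capitals mark the letters TGGGAA, searched on both strands (TTCCCA on the other).
Dtx1: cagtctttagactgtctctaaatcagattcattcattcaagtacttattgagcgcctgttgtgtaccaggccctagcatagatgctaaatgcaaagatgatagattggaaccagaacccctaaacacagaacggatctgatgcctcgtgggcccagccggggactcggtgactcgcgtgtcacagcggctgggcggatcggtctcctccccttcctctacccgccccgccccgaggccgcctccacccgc
Nrarp: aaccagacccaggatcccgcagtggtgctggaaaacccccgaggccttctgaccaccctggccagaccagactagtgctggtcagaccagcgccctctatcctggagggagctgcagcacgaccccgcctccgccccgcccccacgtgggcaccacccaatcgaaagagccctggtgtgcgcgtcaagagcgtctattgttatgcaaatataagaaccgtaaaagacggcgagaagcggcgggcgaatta
Ptcra: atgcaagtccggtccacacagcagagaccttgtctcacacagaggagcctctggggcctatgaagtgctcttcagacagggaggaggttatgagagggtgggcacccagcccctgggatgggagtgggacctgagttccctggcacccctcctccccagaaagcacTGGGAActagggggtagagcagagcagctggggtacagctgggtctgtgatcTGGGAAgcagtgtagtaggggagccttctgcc
The Ptcra window holds the letters at 2 places, first bases -84 and -32 counted back from the base before the start as -1. The letters are not in the windows of Notch1, Notch2, Notch3, Dtx1 and Nrarp. Of 32851 windows of the same length, 21.6% hold the letters at least once and 2.77% hold them at 2 or more places. A match describes the letters only.

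The receptors came first in the comparison of DN1eP-NKT cells with thymic NKT cells of the same library set, which asks how cells grown on a Delta ligand in culture compare with cells that matured in the thymus. Notch1, the main receptor of early T cell development, stood at 19.8, 18.6, 21.4 and 21.4 FPKM in the 4 DN1eP-NKT libraries. In thymic NKT libraries of the higher set it was at 15.0 and 18.7 in NKT-1, at 19.3, 17.4, 13.9 and 24.4 in NKT-2 and at 27.3, 18.7 and 21.6 in NKT-3. The cultured libraries lie inside the thymic range, and the log2 fold change over the mean of the 3 stages was 0.09 ± 0.18 (SE, limma adjusted p = 0.791). Notch2, a second receptor better known from B cells and myeloid cells, was at 8.88, 7.23, 5.58 and 5.83 FPKM in DN1eP-NKT. The 9 thymic libraries of that set spanned 6.08 to 13.3 FPKM with a median of 8.04, and the groups overlap (log2 fold change -0.32 ± 0.18, limma adjusted p = 0.237). Against NKT-1 alone the Notch2 difference was -0.71 ± 0.26 (limma adjusted p = 0.0648). It passed without DN1eP-NKT library 1 (-0.83, limma adjusted p = 0.0347), with quantile normalization (-0.78, 0.0252) and with the higher set alone in the fit (-0.71, 0.0221). In bulk RNA, more cells carrying a transcript and more of it per cell cannot be told apart, here and below.

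Notch3, a receptor of immature thymocytes and of mural cells of blood vessels, was listed at 0.285, 1.04, 1.15 and 0.982 FPKM in DN1eP-NKT. In the other 22 libraries it did not exceed 0.104 FPKM, and the 4 DN1eP libraries are all listed at 0. The deposited intervals of the 4 DN1eP-NKT libraries start at 0.193, 0.646, 0.509 and 0.383 FPKM, all above the highest value elsewhere. The interval of NKT-1 library 2 reaches up to 0.304 FPKM and so overlaps that of DN1eP-NKT library 1. Notch3 reached 1 FPKM in fewer than 4 libraries, so it was not among the 11663 genes tested and carries no p-value. The fourth receptor, Notch4, stayed at or below 0.126 FPKM in every library.

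**Figure D1:**
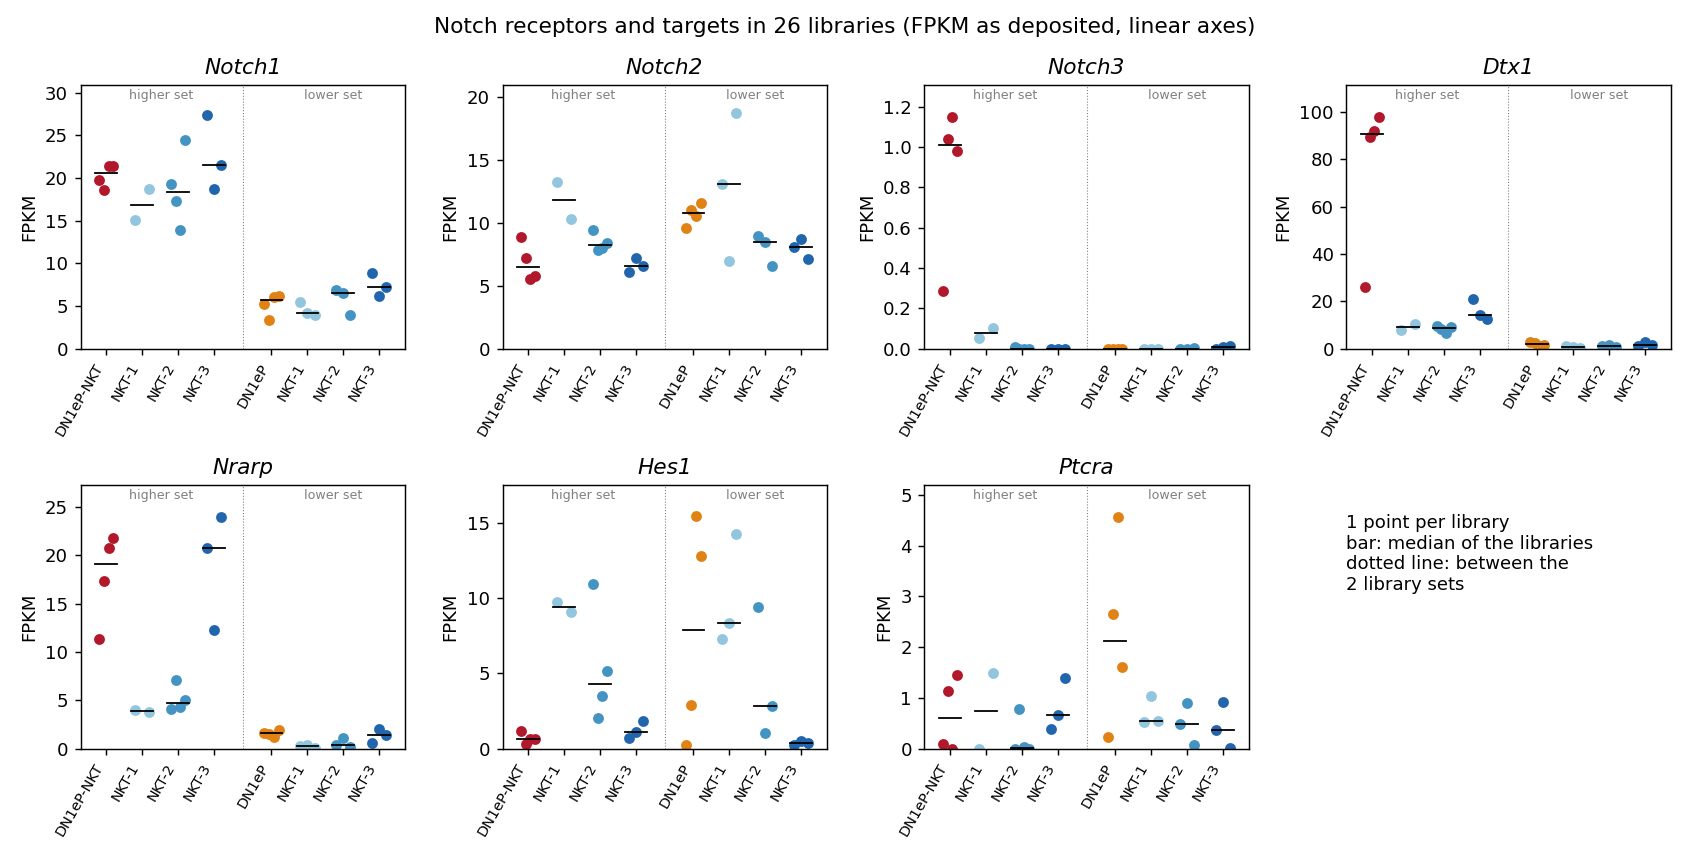
FPKM of each of the 7 members (vertical axes, linear, from 0) in the 26 libraries, 1 point per library, with a bar at the median of each group in each library set. Dtx1 and Notch3 are highest in DN1eP-NKT (Dtx1 26.1 to 97.9 FPKM), Nrarp is high in both DN1eP-NKT and NKT-3 of the higher set, and Hes1 is low in those groups and in NKT-3 of the lower set.

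The target genes did not move together. Of the 6 members tested, 3 were called at an adjusted p under 0.05 over all genes between DN1eP-NKT and the thymic mean, Dtx1 and Nrarp higher and Hes1 lower. Of all genes tested, 22.6% were called in that comparison, 13.5% higher and 9.11% lower, and the members' 3 of 6 is to be read against that. The median log2 fold change over the 6 members was 0.07, against 0.01 over all genes.

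Dtx1 encodes Deltex1, an E3 ubiquitin ligase that is a direct Notch target in T cells and regulates the pathway. It was at 26.1, 89.3, 91.9 and 97.9 FPKM in DN1eP-NKT. Thymic libraries of the same set held 7.80 and 10.3 FPKM in NKT-1, 9.58, 8.41, 6.70 and 9.15 in NKT-2, and 20.9, 14.2 and 12.6 in NKT-3. All 4 cultured libraries lie above all 9 thymic ones, and library 1 is the closest to them. The log2 fold change was 2.57 ± 0.28 over the thymic mean (limma adjusted p = 8.08e-08), 2.79 ± 0.40 over NKT-1, 2.87 ± 0.33 over NKT-2 and 2.06 ± 0.35 over NKT-3. The differences from the single stages had limma adjusted p = 8.75e-06, 1.84e-07 and 7.23e-05. Dtx1 was called against each stage under every alternative setting run and without each library in turn, and the value over the thymic mean then ranged from 2.40 to 3.802.

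Nrarp encodes a small ankyrin repeat protein that is induced by Notch and dampens it. Its levels in DN1eP-NKT were 11.3, 17.3, 20.8 and 21.8 FPKM. In the thymic libraries they were 3.95 and 3.74 in NKT-1, 4.06, 7.12, 4.27 and 5.08 in NKT-2, and 20.8, 12.3 and 24.0 in NKT-3. The cultured libraries thus do not overlap NKT-1 and NKT-2 and do overlap NKT-3. Nrarp rose by a log2 fold change of 1.92 ± 0.31 over NKT-1 (limma adjusted p = 5.52e-05) and of 1.60 ± 0.26 over NKT-2 (3.15e-05). Over NKT-3 the value was -0.08 ± 0.28 (limma adjusted p = 0.885). Over the thymic mean it was 1.15 ± 0.22 (limma adjusted p = 0.00027).

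Hes1 encodes a transcriptional repressor that is the classical Notch target in many tissues. It was near 0 in DN1eP-NKT, at 1.13, 0.294, 0.649 and 0.610 FPKM. NKT-1 libraries of the higher set held 9.76 and 9.05 FPKM and NKT-2 libraries held 10.9, 2.03, 3.48 and 5.15, all above the cultured ones. NKT-3 libraries, at 0.669, 1.10 and 1.80 FPKM, overlap the cultured ones. Hes1 was lower in DN1eP-NKT by a log2 fold change of -2.66 ± 0.74 against NKT-1 (limma adjusted p = 0.0158) and of -1.77 ± 0.61 against NKT-2 (0.0446). Against NKT-3 the value was -0.38 ± 0.66 (limma adjusted p = 0.742), and against the thymic mean -1.60 ± 0.52 (0.0299). The last call was lost without any 1 of DN1eP-NKT libraries 2, 3 and 4, NKT-1 libraries 1 and 2 and NKT-3 library 3, with limma adjusted p of 0.0507 to 0.0923 and a log2 fold change of -1.49 to -1.62. The call against NKT-1 was lost without either of its 2 libraries (limma adjusted p = 0.111 without library 1 and 0.105 without library 2). Against NKT-2 it was lost without any 1 of the 4 DN1eP-NKT libraries or of NKT-2 libraries 1, 3 and 4 (limma adjusted p of 0.0542 to 0.142). Upper-quartile scaling ended the calls against the mean (-1.48, limma adjusted p = 0.0545) and against NKT-2 (-1.64, 0.078), and the call against NKT-2 was also lost with no filter (0.058) and with a filter of 5 FPKM (0.0507). Markers of immature and double-positive thymocytes, 8 genes led by Cd4, summed to 5.24 to 13.3 FPKM in DN1eP-NKT and 37.3 to 97.2 FPKM in thymic libraries of the set, and 1 of the 6 tested, Cd4, was lower. Cd4 made up most of that sum in NKT-1 and NKT-3, and Rag1 and Rag2 stayed low in the thymic libraries of the set (values below). The sum thus mainly follows Cd4 and does not measure how many such thymocytes were present. The part of such cells in the Hes1 values was not tested.

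Dtx1 and Hes1, both Notch targets, lay on opposite sides of NKT-1 and NKT-2 in the same 4 cultured libraries, while Hes1 overlapped NKT-3. Against NKT-3, Dtx1 was the 1 member of 6 called, where 23.4% of all genes were called. Against NKT-1 and NKT-2 the same 3 members were called as against the mean, where 15.2% and 19.1% of all genes were. These comparisons share the 4 DN1eP-NKT libraries.

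Ptcra encodes the pre-TCR alpha chain, which pairs with TCRβ before the alpha locus is rearranged and is a known Notch target in immature thymocytes. DN1eP-NKT libraries held 0.0855, 1.13, 0 and 1.45 FPKM, against 0 to 1.49 FPKM in the 9 thymic libraries of the set. The groups overlap throughout (log2 fold change 0.06 ± 0.34, limma adjusted p = 0.937). The deposited interval reaches down to 0 in all 4 cultured libraries.

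**Figure D2:**
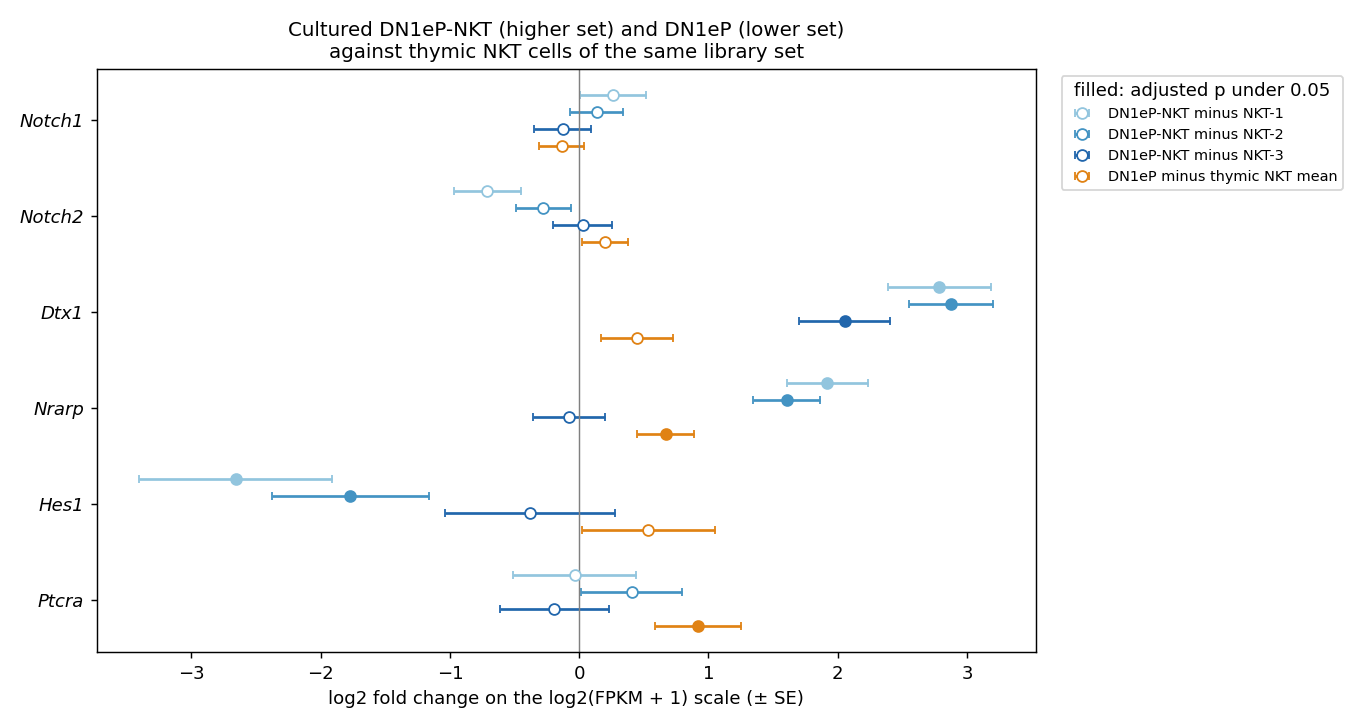
Log2 fold change on the log2(FPKM + 1) scale with its standard error (horizontal axis) for the 6 tested members, in DN1eP-NKT minus each thymic stage within the higher library set and in DN1eP minus the thymic mean within the lower set. Filled points have an adjusted p under 0.05. Dtx1 lies between 2.06 and 2.87 against the 3 stages, Nrarp and Hes1 depart from NKT-1 and NKT-2 and lie near 0 against NKT-3, and Notch1 and Notch2 are open throughout.

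Transcripts of the stromal layer were measured in the same libraries. The 12 genes of the stroma list summed to 89.8, 315, 457 and 454 FPKM in DN1eP-NKT libraries 1 to 4, against 0.292 to 1.35 FPKM in thymic NKT libraries of the higher set. The 7 stroma genes that were tested reached 1 FPKM in 4 libraries only through DN1eP-NKT, where they are high, so their calls carry no weight. Lum, a proteoglycan gene of the list, is listed at 0 in all 4 DN1eP-NKT libraries. Dll1, the ligand carried by the OP9/Dll-1 cells, was at 0.647, 6.94, 8.78 and 8.49 FPKM in DN1eP-NKT, at 0.0459 FPKM or less in all 18 thymic libraries, and listed at 0 in the 4 DN1eP libraries. Dtx1, Notch3, Dll1, Nrarp and the collagen gene Col1a1 (2.43, 28.6, 49.0 and 40.8 FPKM) all have their lowest value in DN1eP-NKT library 1. Notch1 (19.8 FPKM there, 18.6 to 21.4 in the others) does not. Dtx1 in library 1, at 26.1 FPKM, was above the highest thymic value of the set, 20.9. The stroma sum of that library, 89.8 FPKM, was also above the thymic sums of the set, at most 1.35 FPKM. The part of stromal RNA in the Dtx1, Nrarp and Notch3 values was not tested. B cell markers also summed higher in DN1eP-NKT, at 17.1 to 26.6 FPKM against 0.526 to 6.91 FPKM in thymic libraries of the set, with Cd22 and Ebf1 the 2 called genes of 4 tested. These are outside the rule for named genes and were picked after their values were seen.

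**Figure D3:**
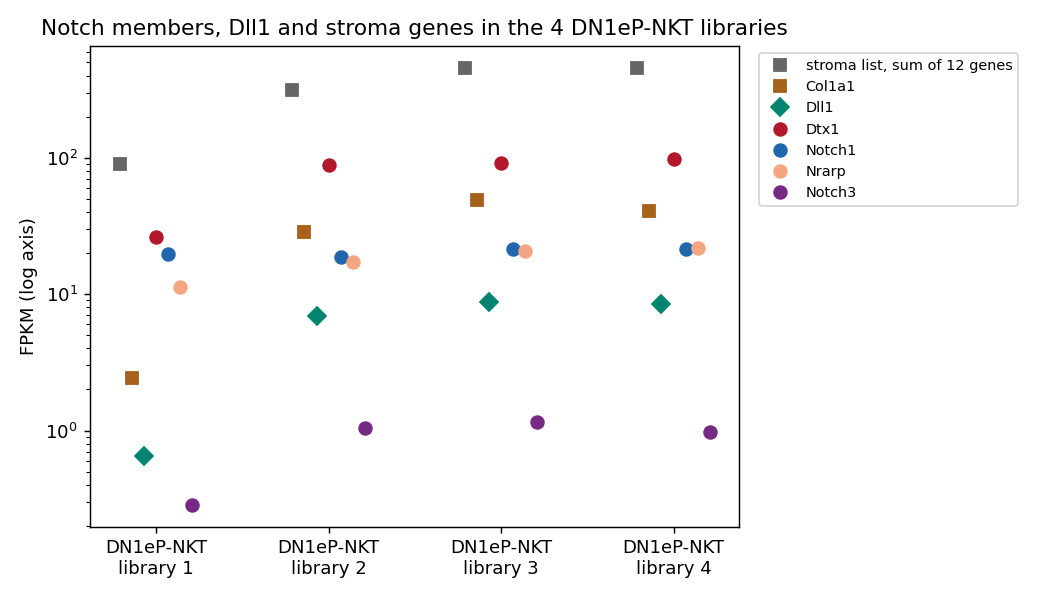
FPKM on a log axis of 4 members, the ligand Dll1, Col1a1 and the sum of the 12 stroma genes in each of the 4 DN1eP-NKT libraries. All series except Notch1 are lowest in library 1, where Dtx1 is at 26.1 FPKM and Dll1 at 0.647 FPKM.

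DN1eP precursors were set against the 9 thymic NKT libraries of the lower set, which asks how Notch gene levels stand before the Vα14Jα18 receptor appears. Here 2 of 6 members were called, Nrarp and Ptcra, both higher in DN1eP, while 35.3% of all genes were called. Nrarp was at 1.64, 1.54, 1.16 and 1.95 FPKM in DN1eP. Thymic libraries of the lower set had 0.220, 0.383 and 0.0796 FPKM in NKT-1, 0.410, 1.12 and 0.175 in NKT-2, and 0.563, 2.04 and 1.37 in NKT-3. By these values DN1eP does not overlap NKT-1 or NKT-2 and does overlap NKT-3. The deposited intervals are wide, at 0.353 to 2.83, 0 to 2.13 and 0.797 to 2.99 FPKM in DN1eP libraries 2, 3 and 4. Each of them covers the value of NKT-2 library 6, and that of DN1eP library 3 also covers all NKT-1 values. The log2 fold change over the thymic mean was 0.67 ± 0.22 (limma adjusted p = 0.0187), and it was 0.60 without DN1eP library 4 (limma adjusted p = 0.0644). In comparisons added after the data were seen, Nrarp differed from NKT-1 by 1.07 ± 0.28 (limma adjusted p = 0.00425, 33.7% of all genes called) and from NKT-3 by 0.19 ± 0.28 (0.688, 20.6% called). The difference from NKT-2 was 0.75 ± 0.28 (limma adjusted p = 0.0429, 29.5% of all genes called). That call was lost without any 1 of DN1eP libraries 1, 2 and 4 or NKT-2 libraries 5 and 7 (limma adjusted p of 0.0593 to 0.199), with no filter (0.054) and with the lower set alone in the fit (0.0659).

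Ptcra was at 0.226, 2.65, 4.57 and 1.60 FPKM in DN1eP, against 0.0146 to 1.05 FPKM with a median of 0.530 in the 9 thymic libraries. Libraries 2 to 4 lie above all thymic libraries, and library 1 lies inside their range. The deposited intervals of libraries 2 and 4 reach down to 0. The log2 fold change was 0.92 ± 0.33 (limma adjusted p = 0.0326). It lost its call without any 1 of DN1eP libraries 2, 3 and 4, NKT-1 library 3, NKT-2 library 7 and NKT-3 library 6 (limma adjusted p of 0.0502 to 0.207, log2 fold change 0.59 to 0.96). It was also lost with a pseudocount of 0.1 (1.66, limma adjusted p = 0.14) and with no filter (0.92, 0.055). Of the 8 markers of immature and double-positive thymocytes, Dntt, Cd8a and Arpp21 were among those higher in DN1eP and Cd4 was lower, with 6 tested. Their sum was 28.2, 51.0, 51.2 and 51.5 FPKM in DN1eP and 23.6 to 89.9 FPKM in the thymic libraries, Rag1 stayed at or below 0.625 FPKM in DN1eP, and the part of such cells in the Ptcra level was not tested. These marker genes were picked after their values were seen.

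Hes1 varied more within DN1eP than any other member, at 0.234, 2.92, 15.4 and 12.8 FPKM. Thymic NKT-1 libraries of the lower set held 7.26, 8.34 and 14.3 FPKM, NKT-2 libraries 9.43, 1.01 and 2.81, and NKT-3 libraries 0.268, 0.474 and 0.380. DN1eP library 1 is lower than all 3 NKT-3 libraries, and libraries 3 and 4 are among the highest of the set. Against the thymic mean the log2 fold change was 0.54 ± 0.52 (limma adjusted p = 0.455), and without DN1eP library 1 it was 1.28 (limma adjusted p = 0.021). Against NKT-3 alone, in a comparison added later, Hes1 was higher in DN1eP by 2.07 ± 0.66 (limma adjusted p = 0.0295). That call was lost without any 1 of DN1eP libraries 3 and 4 and NKT-3 libraries 4, 5 and 6 (limma adjusted p of 0.0658 to 0.106), and when the 2 libraries with B cell or erythroid transcripts were both left out (0.0546) or the lower set alone entered the fit (0.107). DN1eP library 1 also stood apart in myeloid and dendritic markers, which summed to 274 FPKM there and to 36.8, 31.8 and 24.2 FPKM in libraries 2 to 4, and in Ptcra (above). Thymic libraries of the lower set had 0.441 to 77.0 FPKM, median 2.39. B cell markers summed to 22.6 to 50.2 FPKM in DN1eP and to 0.105 to 143 FPKM, median 3.06, in those thymic libraries. Library 1 also had narrower deposited intervals (6.23% against 18.8% to 23.8% in libraries 2 to 4). Whether these differences bear on Hes1 or on other values in DN1eP was not tested.

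Dtx1 was low in both DN1eP and thymic cells of the lower set, at 2.94, 2.59, 1.30 and 1.46 FPKM in DN1eP and at 0.323 to 2.96 FPKM in the 9 thymic libraries. The groups overlap (log2 fold change 0.45 ± 0.28, limma adjusted p = 0.224). Notch1 was at 5.28, 3.43, 6.11 and 6.14 FPKM in DN1eP and at 3.91 to 8.86 FPKM in the thymic libraries (-0.13 ± 0.18, limma adjusted p = 0.588). Notch2 was at 9.60, 11.04, 10.6 and 11.6 FPKM in DN1eP and at 6.55 to 18.7 FPKM in the thymic libraries (0.20 ± 0.18, limma adjusted p = 0.413). Both receptors overlap between the groups.

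DN1eP-NKT and DN1eP, the cells after and before the 10 days of culture, never share a library set, so culture and library set cannot be told apart in their direct difference. They were compared through their differences from the thymic mean of the same set, which assumes that the set shifts these cells as it shifts thymic ones. On that scale Dtx1 was higher in DN1eP-NKT by a log2 fold change of 2.13 ± 0.39 (limma adjusted p = 0.000226). Hes1 was lower by -2.14 ± 0.74 (limma adjusted p = 0.0309), a call lost without any 1 of DN1eP libraries 3 and 4 and DN1eP-NKT libraries 2, 3 and 4 (limma adjusted p of 0.0505 to 0.0913) and under upper-quartile scaling (-1.91, 0.0576). Nrarp (0.48 ± 0.31, limma adjusted p = 0.247), Ptcra (-0.86 ± 0.47, 0.169), Notch1 (0.22 ± 0.25, 0.523) and Notch2 (-0.52 ± 0.25, 0.121) were not called. Nrarp kept its direction in 8 of 9 alternative settings, with values from -0.18 to 2.84. Its levels are low in the lower set, where the log2(FPKM + 1) scale understates changes, so its direction here is not settled. Without DN1eP library 1 Ptcra was at -1.26 (limma adjusted p = 0.0227), and without NKT-1 library 5 Notch2 was at -0.62 (limma adjusted p = 0.0403). In this comparison 2 of 6 members and 31.6% of all genes were called. Without any term for library set, 5 of 6 members were called, the difference for Nrarp being 2.84 and for Notch1 1.80.

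The set itself moved some members and not others in thymic NKT cells, where both sets hold every stage. Between the 9 thymic libraries of the higher set and the 9 of the lower set, 72.5% of all genes were called, with a median log2 difference of 0.50. Dtx1 differed by 2.40 ± 0.22, Nrarp by 2.36 ± 0.17 and Notch1 by 1.57 ± 0.14, all higher in the higher set (limma adjusted p = 3.48e-10, 5.17e-12 and 1.78e-10). Notch2 (-0.06 ± 0.14, limma adjusted p = 0.699), Hes1 (0.34 ± 0.41, 0.479) and Ptcra (-0.02 ± 0.26, 0.953) were not called. The order of the receptors follows the set: Notch1 exceeded Notch2 in 13 of 13 libraries of the higher set, with a ratio of 1.13 to 4.50. In the lower set Notch1 was below Notch2 in 11 of 13 libraries, with a ratio of 0.210 to 1.10. Which receptor transcript is the more abundant in these cells can therefore not be told from the values of 1 set.

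Within thymic NKT cells the stages were compared inside each set and averaged over the 2 sets. NKT-3, the most mature stage, differed from NKT-1 in 4 of 6 members, while 37.2% of all genes were called. Nrarp was at 20.8, 12.3 and 24.0 FPKM in NKT-3 and 3.95 and 3.74 in NKT-1 of the higher set. In the lower set it was at 0.563, 2.04 and 1.37 FPKM in NKT-3 and 0.220, 0.383 and 0.0796 in NKT-1. Stages do not overlap in either set, and the log2 fold change was 1.44 ± 0.22 (limma adjusted p = 1.19e-05). Within the higher set alone it was 1.998 ± 0.33 and within the lower set 0.88 ± 0.30, both called (limma adjusted p = 5.85e-05 and 0.0304), where 22.2% and 25.4% of all genes were. The difference between these 2 values, 1.12 ± 0.44, was not called (limma adjusted p = 0.446, 0.317% of all genes called). The log2(FPKM + 1) scale understates changes at the low Nrarp levels of the lower set. The sizes of the change in the 2 sets can therefore not be compared.

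Hes1 moved the other way, at 0.669, 1.10 and 1.80 FPKM in NKT-3 against 9.76 and 9.05 in NKT-1 of the higher set. In the lower set it was at 0.268, 0.474 and 0.380 FPKM in NKT-3 against 7.26, 8.34 and 14.3 in NKT-1. The stages are apart in both sets, and Hes1 fell in NKT-3 by a log2 fold change of -2.61 ± 0.53 (limma adjusted p = 0.000467), also within the higher set alone (-2.28 ± 0.78, 0.0409) and within the lower set alone (-2.95 ± 0.70, 0.00356). The 8 markers of immature and double-positive thymocytes also had a lower sum in NKT-3 of the higher set, although none of the 6 tested was called within that set by limma (Cd4 at -1.28, adjusted p = 0.42). The sum was 37.3 to 40.8 FPKM in NKT-3 and 83.8 to 91.8 FPKM in NKT-1 there. In the lower set it was 23.6 to 34.5 FPKM in NKT-3 and 33.2 to 74.8 FPKM in NKT-1. Cd4 made up most of the sum in the higher set (31.6 to 33.5 FPKM in NKT-3 and 79.9 to 80.5 in NKT-1), while the defining recombinase genes Rag1 and Rag2 did not exceed 0.997 and 0.470 FPKM in the thymic libraries of the higher set. The part of such cells in the Hes1 level was not tested.

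The receptors changed less across stages. Notch2 was lower in NKT-3, at 6.08, 7.25 and 6.62 FPKM against 13.3 and 10.3 in NKT-1 of the higher set, and at 8.08, 8.76 and 7.18 FPKM against 13.1, 6.97 and 18.7 in the lower set. The groups are apart in the higher set and overlap in the lower one (log2 fold change -0.64 ± 0.18, limma adjusted p = 0.00738, and -0.55 without NKT-1 library 1, 0.0502). With quantile normalization, which shifts the all-gene median here by 0.17, Notch2 was at -0.43 (limma adjusted p = 0.0548). Notch1 was higher in NKT-3, at 27.3, 18.7 and 21.6 FPKM against 15.0 and 18.7 in NKT-1 of the higher set and 8.86, 6.16 and 7.26 against 5.44, 4.23 and 3.93 in the lower set. Its log2 fold change of 0.50 ± 0.18 (limma adjusted p = 0.0304) lost its call without any 1 of NKT-1 libraries 1, 4 and 5 and NKT-3 libraries 1 and 4 (limma adjusted p of 0.055 to 0.131).

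Dtx1 did not pass the threshold between NKT-3 and NKT-1 (0.66 ± 0.28, limma adjusted p = 0.0681), although its NKT-3 libraries of the higher set, at 12.6 to 20.9 FPKM, lie above NKT-1 at 7.80 and 10.3. In the lower set the stages overlap, at 1.10 to 2.96 FPKM in NKT-3 and 0.323 to 1.39 in NKT-1. Neither the higher set alone (0.73 ± 0.42, limma adjusted p = 0.237) nor the lower set alone (0.59 ± 0.38, 0.281) was called. The mean over both sets passed without NKT-3 library 4 (0.76, limma adjusted p = 0.0491), under upper-quartile scaling (0.73, 0.0405) and quantile normalization (0.87, 0.0213), and with the thymic libraries alone in the fit (0.66, 0.0198). Ptcra was at -0.07 ± 0.34 (limma adjusted p = 0.91). Between NKT-2 and NKT-1 limma called 0 of 6 members, with 1% of all genes called (0.214% within the higher set alone and 0.489% within the lower). At an unadjusted p under 0.05, Hes1 (-1.09 ± 0.51) and Notch2 (-0.49 ± 0.18) were lower in NKT-2, and Notch2 was called without NKT-1 library 4 (-0.67, limma adjusted p = 0.0366). Between NKT-3 and NKT-2, a comparison added after the data were seen in which 29% of all genes were called, Nrarp was higher by 1.12 ± 0.20 (limma adjusted p = 0.000119). Hes1 was lower in NKT-3 than in NKT-2 by -1.52 ± 0.48 (limma adjusted p = 0.0206), and at -1.20 without NKT-2 library 5 (0.0694). The stage comparisons share libraries with one another and with those of DN1eP-NKT.

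**Figure D4:**
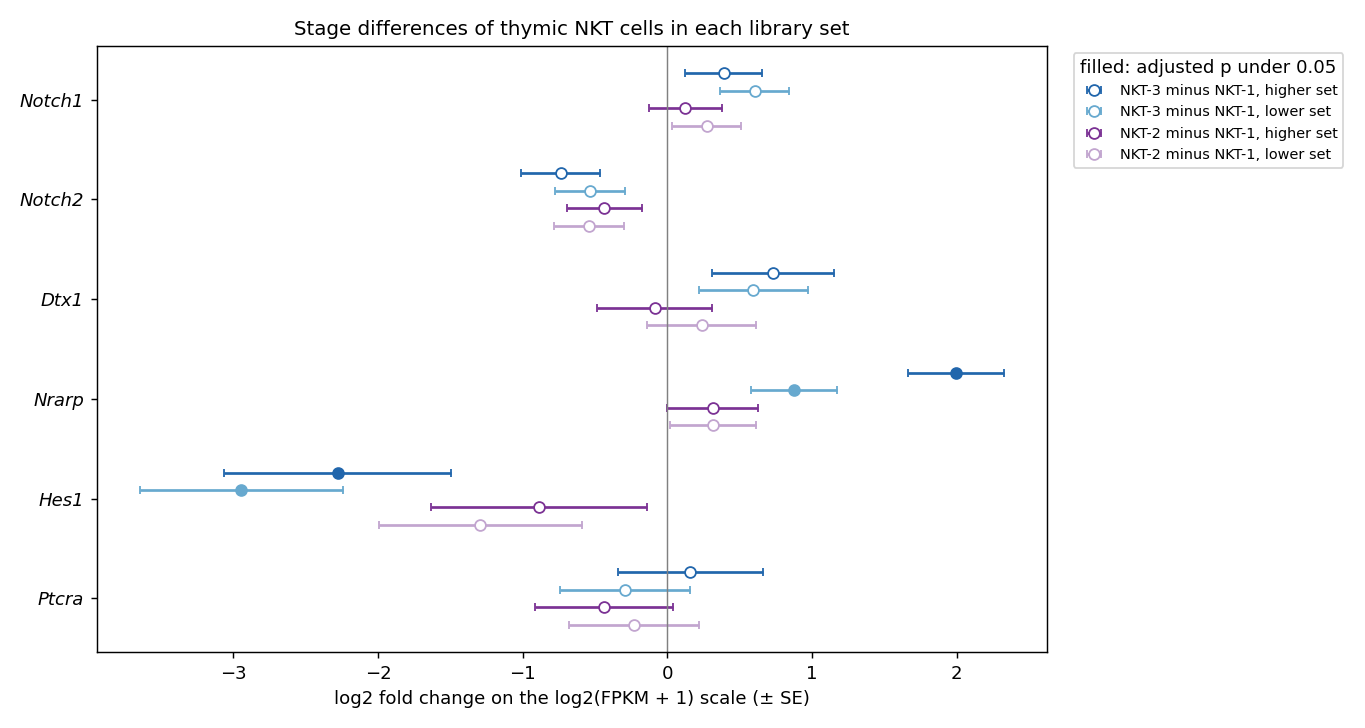
Log2 fold change on the log2(FPKM + 1) scale with its standard error (horizontal axis) of the 6 tested members between thymic NKT stages, separately in the higher and the lower library set. Filled points have an adjusted p under 0.05. Nrarp (1.998 and 0.88) and Hes1 (-2.28 and -2.95) are filled in both sets for NKT-3 minus NKT-1, and no member is filled for NKT-2 minus NKT-1.

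The levels of the members order the groups differently. Within the higher set, mean Dtx1 was 76.3 ± 33.7 FPKM in DN1eP-NKT (SD, n = 4), 9.06 ± 1.79 in NKT-1 (n = 2), 8.46 ± 1.27 in NKT-2 (n = 4) and 15.9 ± 4.40 in NKT-3 (n = 3), so that NKT-1 and NKT-2 are within 1 SD of each other. Mean Nrarp was 17.8 ± 4.73, 3.84 ± 0.149, 5.13 ± 1.39 and 19.0 ± 6.07 FPKM in DN1eP-NKT, NKT-1, NKT-2 and NKT-3, and the first and the last of these are within 1 SD. Mean Hes1 was 0.672 ± 0.347, 9.40 ± 0.501, 5.40 ± 3.91 and 1.19 ± 0.573 FPKM in those groups, and the NKT-2 libraries, at 2.03 to 10.9 FPKM, reach past both NKT-1 values. Mean Notch1 was 20.3 ± 1.35, 16.9 ± 2.56, 18.7 ± 4.39 and 22.5 ± 4.39 FPKM, and neighbours in that order do not differ beyond their spread. In the lower set, mean Hes1 was 7.83 ± 7.38 FPKM in DN1eP (n = 4) and 9.96 ± 3.78, 4.41 ± 4.43 and 0.374 ± 0.103 FPKM in NKT-1, NKT-2 and NKT-3 (n = 3 each).

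Other genes of the pathway, 58 in a list written from textbook knowledge with earlier results of these data known, were read by role. Of the 57 in the files, 44 were tested. Between DN1eP-NKT and the thymic mean 7 were higher and 7 lower, where 13.5% of all genes were higher and 9.11% lower. Their median log2 fold change was -0.13, with 0.01 over all genes. Among ligands, Jag1 was the 1 gene tested, at 2.98 to 5.32 FPKM in DN1eP-NKT and 0.456 to 5.64 FPKM in thymic libraries of the set (0.29 ± 0.33, limma adjusted p = 0.608). Dll3 is listed at 0 in all 26 libraries, and Dll4 and Jag2 did not exceed 0.474 and 0.584 FPKM. Dlk1, a Delta-like protein without the usual receptor-activating domain, was at most 0.0159 FPKM in DN1eP-NKT and reached 1.26 FPKM in NKT-1.

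Of the 8 tested genes for receptor cleavage and maturation, Furin and Aph1a were higher and Psen2 and Adam10 lower in DN1eP-NKT. Furin encodes the protease that cuts the Notch precursor in the Golgi. It was at 28.5 to 38.2 FPKM in DN1eP-NKT and 6.91 to 18.0 FPKM in thymic cells of the set (1.32 ± 0.30, limma adjusted p = 0.00162). Psen2, a catalytic subunit of γ-secretase, was at 17.0 to 23.5 FPKM in DN1eP-NKT and 29.0 to 62.4 FPKM in thymic cells (-0.96 ± 0.17, limma adjusted p = 0.000141). Aph1a, another γ-secretase subunit, was at 72.6 to 103 FPKM in DN1eP-NKT and 52.0 to 74.5 FPKM in thymic cells (0.63 ± 0.21, limma adjusted p = 0.0309). Of 5 glycosylation genes Pofut1, which adds fucose to the receptor, was the 1 called (-0.55 ± 0.17, limma adjusted p = 0.0213).

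Of the 8 nuclear complex genes, Rbpj and Kat2b were higher and none was lower. Rbpj, the DNA-binding partner of cleaved Notch, was at 35.2 to 45.4 FPKM in DN1eP-NKT and 17.4 to 30.7 FPKM in thymic cells of the set (0.74 ± 0.20, limma adjusted p = 0.008). Kat2b, a histone acetyltransferase, was higher by 0.96 ± 0.24 (limma adjusted p = 0.00393). Of 10 tested antagonists, Numbl (1.08 ± 0.20, limma adjusted p = 0.000228), a relative of the Notch inhibitor Numb, was higher, and the corepressor Tle4 (-1.09 ± 0.17, 2.88e-05) was lower. Of the 4 other Deltex genes, Dtx4 was lower, at 0.145 to 0.309 FPKM in DN1eP-NKT and 1.01 to 4.47 FPKM in thymic cells (-1.41 ± 0.24, limma adjusted p = 5.98e-05), on the opposite side from Dtx1.

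Among 8 other tested targets, Il2ra and Myc were higher and Hey1 and Tcf7 lower in DN1eP-NKT. Il2ra, which encodes the IL-2 receptor alpha chain CD25, was at 92.7 to 113 FPKM in DN1eP-NKT and 0.205 to 3.92 FPKM in thymic cells (5.43 ± 0.30, limma adjusted p = 5.46e-13). Myc, a growth regulator, was at 48.4 to 102 FPKM in DN1eP-NKT and 30.0 to 61.9 FPKM in thymic cells (0.84 ± 0.26, limma adjusted p = 0.0181). Hey1, a repressor related to Hes1, was at 0.404 FPKM or less in DN1eP-NKT and at 0.855 to 15.2 FPKM in thymic cells (-2.33 ± 0.49, limma adjusted p = 0.00105). Tcf7, which encodes the T cell factor TCF-1, was lower by -1.04 ± 0.26 (limma adjusted p = 0.00345).

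In DN1eP against the thymic mean, 11 of the 44 pathway genes were higher and 3 lower, with a median of 0.10 against 0.05 over all genes. These 14 of 44 are no larger a share than the 35.3% called over all genes. Rbpj was higher here too, at 27.1 to 47.1 FPKM in DN1eP and 9.69 to 22.7 FPKM in thymic cells of the lower set (1.40 ± 0.20, limma adjusted p = 8.95e-06). Jag1 was at 10.9 to 24.6 FPKM in DN1eP and 2.37 to 21.3 FPKM in thymic cells (1.43 ± 0.32, limma adjusted p = 0.00132). Dtx4 (1.07 ± 0.24, limma adjusted p = 0.000998) and Furin (1.08 ± 0.30, 0.00587) were higher, and Myc (-1.20 ± 0.25, 0.000669) and Aph1a (-0.87 ± 0.21, 0.00201) were lower. Il2ra was at 6.91 to 14.4 FPKM in DN1eP, which were sorted without CD25, and at 0.245 to 6.42 FPKM in thymic cells (2.15 ± 0.30, limma adjusted p = 5.80e-06). Between NKT-3 and NKT-1, 4 of the 44 genes were higher and 9 lower, no larger a share than the 37.2% called over all genes. Among them, Psen2 (0.86 ± 0.18, limma adjusted p = 0.000366) and Il2ra (1.18 ± 0.30, 0.00311) were higher in NKT-3, and Hey1 (-2.005 ± 0.50, 0.00281) and Tcf7 (-1.86 ± 0.26, 2.66e-06) lower.

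**Figure D5:**
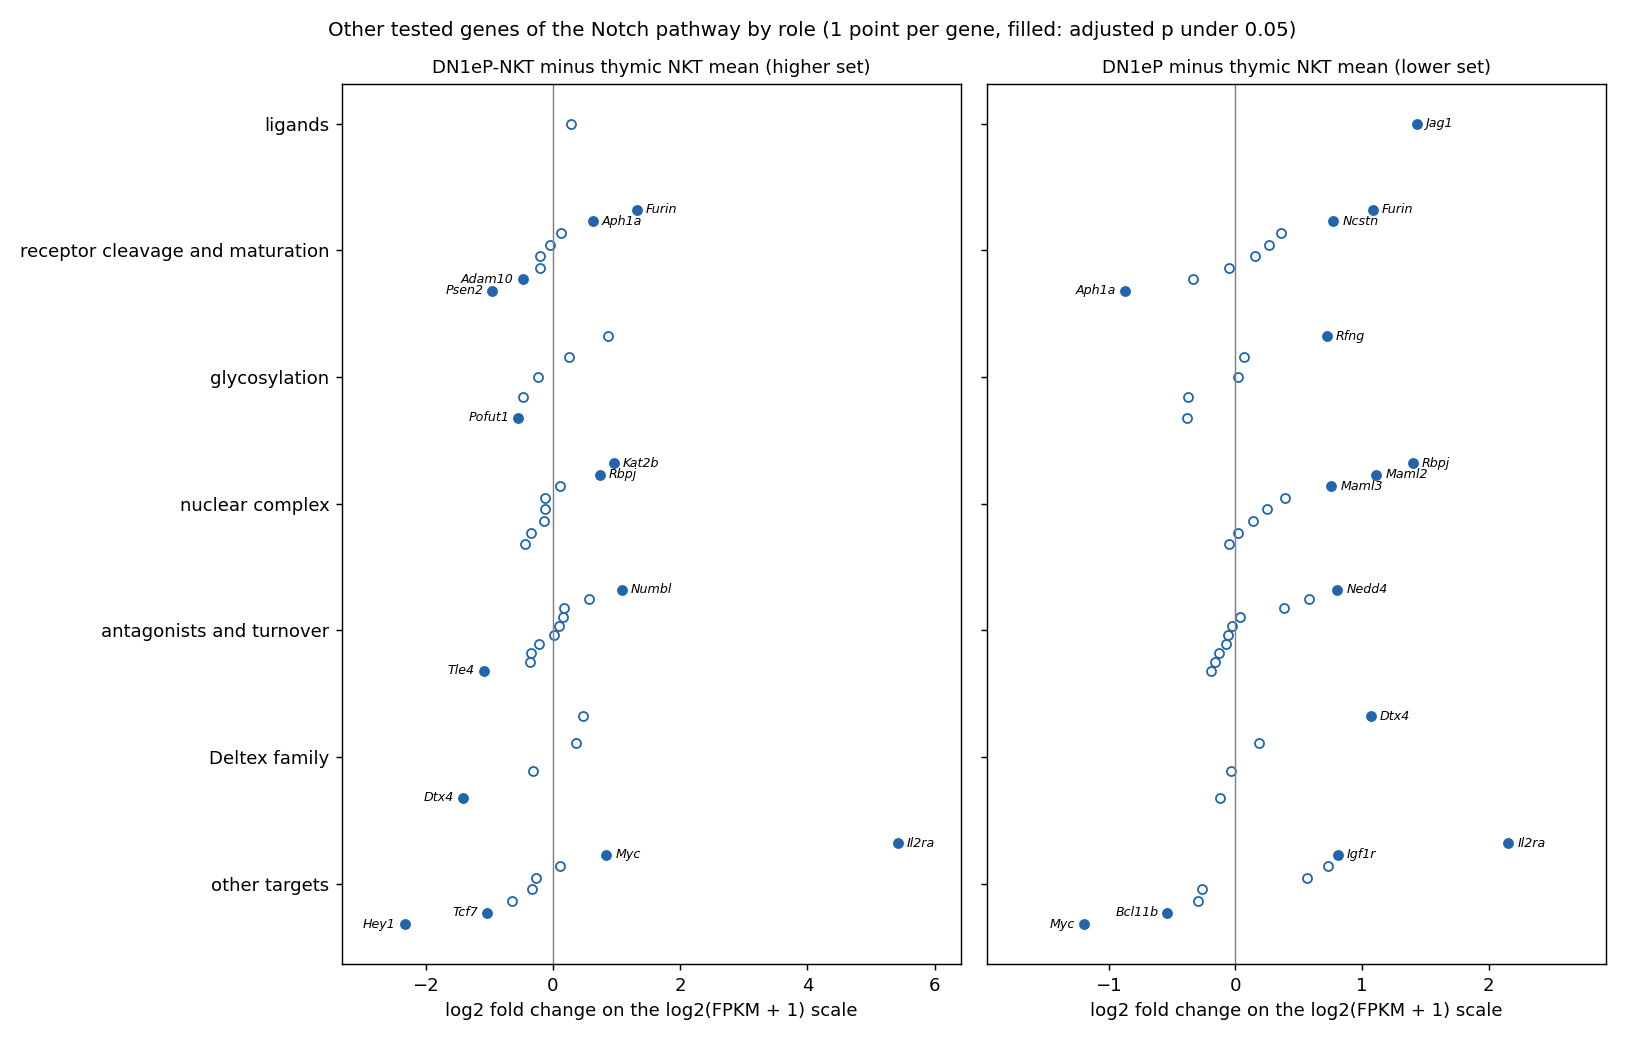
Log2 fold change on the log2(FPKM + 1) scale (horizontal axis) of the 44 other tested genes of the Notch pathway, 1 point per gene in rows by role, for DN1eP-NKT minus the thymic mean (left) and DN1eP minus the thymic mean (right). Filled and named points have an adjusted p under 0.05. On the left 7 genes are filled on each side of 0, and on the right 11 are filled above 0 and 3 below.

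The genes whose pattern over the 26 libraries was most like that of each member were found by Pearson's r on log2(FPKM + 1), after subtracting from each library the mean of the thymic stage means of its set. This describes likeness over libraries that share sets, groups and depth, and carries no p. For Dtx1 they were Fstl1 (r = 0.942), Bgn (0.941) and Snx9 (0.937), of which Bgn is a gene of the stroma list. Bgn entered the test only through DN1eP-NKT, where Dtx1 is high too, so its r follows from that group and carries no weight. For Hes1 they were Plaur (0.882), Hey1 (0.876) and Ccr9 (0.869). For Nrarp they were Gm14325 (0.935), C630004H02Rik (0.932) and Tbc1d9b (0.929). The receptors had lower values, with Prex1 (0.799) first for Notch1 and Fzd6 (0.838) first for Notch2. For Ptcra the first was Barhl2 (0.843).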

How the data were processed

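Each library has a deposited table of FPKM per gene, which the authors made with TopHat2 2.0.6 and Cufflinks 2.1.1 on mm9, per the submitters' processing notes. Those tables also hold the lower and upper bound of an FPKM interval. FPKM scales with the total of a library, so a few abundant genes lower all others, and Cufflinks shares reads between isoforms. Of 23267 symbols, 23168 had a usable value in each of the files, while 86 lacked one somewhere and the estimate of 13 had failed or gone over the limit. Each member is a single entry in each file.

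Values were tested as log2(FPKM + 1), which understates changes of low genes, with limma 3.58.1 in R 4.3.3 (trend and robust eBayes). A gene entered if 4 or more libraries held it at 1 FPKM or above (11663 genes), with Benjamini-Hochberg adjustment across these and a threshold of 0.05. All 26 libraries shared 1 estimate of spread, with 8 coefficients, 1 for each group in each library set. Fold changes are on that log2 scale. The fit was tested on simulated data. The members, gene lists, the use of library sets and the tests were chosen with earlier results of these data known.

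Named genes are the 7 members, every ligand and Notch4, up to 3 called genes of each pathway list with the largest change between DN1eP-NKT and the thymic mean, and the 3 genes most like each member. Adam10, Myc and the genes of marker lists are outside that rule and were named after their values were seen. Alternatives were leaving out each library, a replicate block, no library set, fewer groups in the fit, quantile normalization, upper-quartile scaling, no filter, a filter of 5 FPKM and a pseudocount of 0.1. Each set alone, leaving out both libraries with B cell or erythroid transcripts, NKT-3 minus NKT-2 and DN1eP minus each stage were added after seeing the data. Raw reads were not used here. One gene of the marker lists is not reported here by name.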

Additional observations from a re-analysis of the deposited data

Results flagged for a closer look

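Dtx1 in DN1eP-NKT library 1, at 26.1 FPKM, lies far from the other 3 cultured libraries, at 89.3 to 97.9 FPKM. It was the 1 such case among 35 checks of members within groups of 4 to 7 libraries, and chance alone gives about 1 in 20. The checks of the thymic stages pooled both library sets, so the gap between sets could hide a library that lies far from the others of its set. Whether a thymic library does so was not tested. Notch3 had the same value in all DN1eP libraries, so its check there could flag none. DN1eP-NKT library 1 also has the lowest stroma sum of its group (89.8 FPKM against 315 to 457) and the lowest Dll1 (0.647 FPKM against 6.94 to 8.78). Its deposited intervals at 20 to 100 FPKM had the smallest half-width of the group, 7.01% against 15.9% to 21.8%. Without it, Dtx1 was higher in DN1eP-NKT than the thymic mean by a log2 fold change of 3.02, against 2.57 with it. The part of these differences in the Dtx1 value was not tested.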

How the results depend on the processing

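Of 1506 values of single members under alternatives, 1410 counted as unchanged, 70 lost a call, 24 gained one and 2 called values changed sign. Those 2 came with no library set in the fit, where Nrarp in DN1eP was at -0.49 against the thymic mean (limma adjusted p = 0.538) and at -0.39 against NKT-2 (0.687). Sign changes of values called in neither fit counted as unchanged. Dtx1 in DN1eP against NKT-3, for example, kept its direction in 7 of 10 settings. The number of members called between DN1eP and the thymic mean, 2, was 1 with no library set, with no filter, with a filter of 5 FPKM or with a pseudocount of 0.1, and ranged from 0 to 3 when 1 library was left out. With the filter of 5 FPKM, Ptcra did not enter the test. Between NKT-3 and NKT-1 it was 4, and 2 with no library set, in the higher set alone and in the lower set alone, with 2 to 4 when 1 library was left out. Between DN1eP-NKT and DN1eP it was 2, and 1 with upper-quartile scaling, 5 with no library set and 1 to 3 when 1 library was left out. Between NKT-2 and NKT-1 it was 0, and 0 to 1 when 1 library was left out.

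Replicate numbers were not taken to pair the samples, since the labels tie no number to an animal or day and correlations of same-numbered deviations ran from -0.35 to 0.48, with both signs. The replicate 1 libraries of DN1eP, DN1eP-NKT, NKT-1 and NKT-2 did correlate with one another, at 0.161 to 0.484. The replicate block gave 0 members in place of 2 between DN1eP and the thymic mean (Nrarp 0.93, limma adjusted p = 0.0653, and Ptcra 0.91, 0.163). Under it the calls of Hes1 in DN1eP-NKT against NKT-2 (-1.77, 0.0527), in NKT-3 against NKT-2 (-1.46, 0.0527) and in DN1eP against NKT-3 (2.63, 0.0762), and of Nrarp in DN1eP against NKT-2 (1.01, 0.205), were also lost. It lowered the genes called there to 2223 from 4112, between DN1eP-NKT and DN1eP to 2287 from 3691, and between NKT-2 and NKT-1 to 72 from 117. Genes called between NKT-2 and NKT-1 were also 27 with no library set, 25 and 57 in the higher and the lower set alone, 65 without both libraries that held B cell or erythroid transcripts, and 63, 45 and 65 without NKT-1 library 1, NKT-1 library 2 and NKT-2 library 6. Between NKT-3 and NKT-1 the count of 4338 was 2180 with no library set and 2587 in the higher set alone. Between DN1eP-NKT and DN1eP it was 6136 with no library set, and between DN1eP-NKT and NKT-1 1067 in place of 1778 without NKT-1 library 2. The cause of these changes was not tested. Upper-quartile scaling shifted the median of all tested genes by -0.12 between DN1eP and the thymic mean and by 0.17 between DN1eP-NKT and DN1eP, and both scalings shifted it by -0.21 between DN1eP and NKT-3, where Notch1, not called at -0.45, was called at -0.74 (upper quartile, limma adjusted p = 0.0221) and -0.65 (quantile, 0.0295). Restricting the fit to 1 set gave no value for DN1eP-NKT against DN1eP, which uses both. Low FPKM have wide deposited intervals, and in DN1eP-NKT those of Ptcra reach 0 in 4 libraries and those of Hes1 in 3.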
